A study of Bos taurus with 9 samples.

Results

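Mitosis and G2/M genes encode the machinery that takes a cell from the end of DNA replication through division, and 60 of them were listed by symbol for description in cultured cells of the bovine nucleus pulposus, the gelatinous centre of an intervertebral disc. A listed gene was taken as measured where the array's annotation gives it a probe set of its own, and the probe set with the highest mean over the 9 arrays then stood for it. By this rule 42 of the 60 were measured, of 9155 genes with such a probe set in the whole table, and all 42 passed the filter on low values. Of the other listed genes, 17 had no probe set of their own in the annotation used (CDC25B, NEK2, INCENP, TTK, CENPE, CENPK, NUF2, SPC25, KIF11, DLGAP5, PRC1, ANLN, RACGAP1, SMC2, TOP2A, MKI67 and FOXM1) and PTTG1 had only a probe set shared with another gene, so these 18 were not analysed here.

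The 9 one-colour arrays fall into 3 groups of 3: cells with salt added to 500 mOsm/kg for 24 h, cells with salt added to 500 mOsm/kg for 5 h, and untreated control cells. Per the labels the cells came from caudal discs of young calves and grew in DMEM and fetal bovine serum. The labels call the replicates biological without stating if each culture had its own animal, and p-values measure only how these cultures vary. Control cells carry no time in the labels and both times are set against the same 3 control arrays, so that time in culture and salt cannot be told apart.

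Entry into mitosis is driven by cyclin-dependent kinase 1 bound to cyclins A and B, with the Polo-like and Aurora kinases acting beside it. Kinetochores then attach chromosomes to the spindle, the spindle assembly checkpoint holds the anaphase-promoting complex (APC/C) in check until every chromosome is attached, and the APC/C afterwards marks cyclin B and securin for destruction. Many of these genes are transcribed together late in the cell cycle and are low in cells that do not divide, and nucleus pulposus cells of the intact disc are known to divide slowly.

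In a principal component analysis of all probe sets tested, the first axis, 47.7% of the variance, separated the 3 arrays numbered 3 from the other 6. On the second axis, 31.1% of the variance, the 24 h arrays stood apart and control replicate 1 lay between them and the other arrays. Median intensities of the arrays ran from 67.1 to 84.5. Of 16 nucleus pulposus markers, 9 were measured: HIF1A, CDH2 and ACAN gave intensities of 3189 to 5884, 1083 to 2498 and 497 to 4026 over the 9 arrays, while KRT8, KRT19, CA3 and SNAP25 lay under the filter on low values. The summed intensity of the 9 was 9209 to 10300 at 24 h, 6333 to 8634 at 5 h and 6497 to 8108 in control. Of the 5 tested, ACAN differed by 1.35 and HIF1A by 0.29 at 24 h, called higher only with the block (adjusted p = 0.19 and 0.45, and 0.00041 and 0.044 with it). The other 3, COL2A1, KRT18 and CDH2, lay below 0 at 24 h (lowest -0.39), and the median of the 5 was -0.16. With the block 0 of the 5 were called lower, and 2 were lower at an unadjusted p under 0.05. The summed leukocyte markers (7 of 8 measured) lay at 407 to 442 at 24 h, 217 to 232 at 5 h and 212 to 230.3 in control; of them CD14 rose at 24 h by 1.43 on the log2 scale, while the defining marker PTPRC lay between 0 and 36.8. The summed muscle markers (6 of 7 measured) lay at 2153 to 3514 at 24 h, 1174 to 3432 at 5 h and 929 to 1108 in control, and of the 4 tested CKM, muscle creatine kinase, rose at 24 h by 1.99. The others differed by -0.60 (ACTA1, wholly below control and called lower with the block, adjusted p = 0.0023), -0.16 (TNNT3) and 0.26 (DES), and MYOD1 lay between 0 and 9.2. Fibroblast, endothelial and erythroid sums overlapped between the groups. Of the 5 fibroblast markers tested, COL12A1 rose at 24 h by 1.73 and THY1 by 0.74, with all 24 h arrays above control, while COL1A1, COL1A2 and COL3A1 differed by -0.32, -0.22 and -0.06 (with the block COL1A1 and COL1A2 were called lower, adjusted p = 0.046 and 0.026). Of the 5 endothelial markers tested limma called 0 (1 lower and 0 higher at an unadjusted p under 0.05), and with the block CLDN5 was called lower and TEK higher. The log2 ratio of the 3' to the 5' actin probe sets, a sign of RNA integrity, was 2.83, 2.83 and 3.31 at 24 h (replicates 1, 2 and 3), 2.37, 2.90 and 2.78 at 5 h, and 2.51, 2.87 and 2.69 in control. The same ratio of the GAPDH probe sets lay between -0.18 (control replicate 2) and 0.06 (5 h replicate 1), and was 0.02 in 24 h replicate 3. The part of these markers and of RNA integrity in the results below was not tested.

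After 24 h in salt, 11 of the 42 mitosis and G2/M genes fell relative to control and 0 rose, and those that fell act at many steps of division. They were the cyclin CCNA2, the kinase subunit CKS1B, the chromosomal passenger CDCA8, the checkpoint kinase BUB1, UBE2C and FBXO5 of the APC/C system, the kinetochore gene CENPN, the spindle genes ASPM and STMN1, the cytokinesis gene ECT2 and the transcription factor MYBL2. With the replicate number as a block, 37 fell and 0 rose. The background was 4.32% of all 18012 probe sets tested called lower and 4.28% called higher, and with the block 17.5% and 18.3%. The log2 difference was below 0 in all 42, against 47.2% of all probe sets, with a median of -0.77 and a range of -1.86 (MYBL2) to -0.15 (HMMR); the median over all probe sets was 0.023. The 24 h arrays lay wholly below the control arrays for 18 members and wholly above for 0, against 13.5% and 13.9% of all probe sets. Fewer dividing cells and less RNA of these genes per cell cannot be told apart in such bulk samples.

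The count of 11 moved with single arrays, and so did the share of all probe sets called lower, 4.32% with every array. It was 2 without control replicate 2 (0.827% of all probe sets), 2 without control replicate 3 (1.07%), 2 without 24 h replicate 1 (0.749%) and 4 without 24 h replicate 3 (2.49%). Without 5 h replicate 1, which enters the shared estimate of spread, it was 5 (2.51%). Over all 9 refits that left out 1 array it was between 2 and 15. CKS1B and FBXO5 kept their calls in all 9 refits. The median of the members stayed between -1.06 and -0.55, and a single member lay above 0 in 1 of the 9, the refit without 24 h replicate 3.

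**Figure D1:**
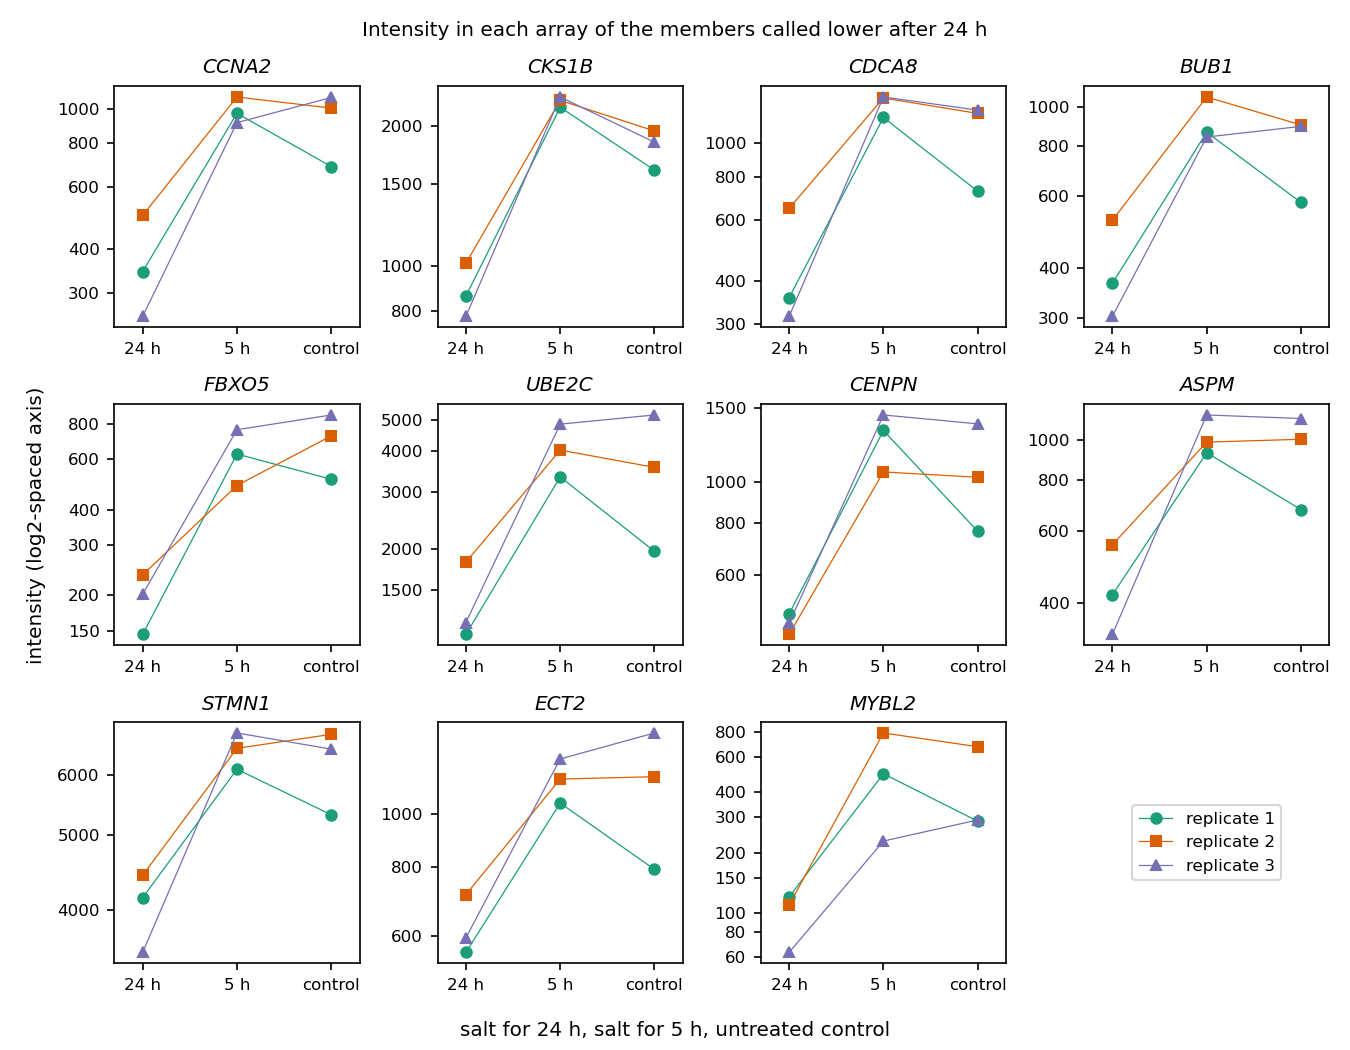
Intensity (log2-spaced vertical axes) of the 11 members called lower at 24 h, in cells given salt for 24 h, given salt for 5 h and in untreated control. Each point is an array, and lines join arrays with the same replicate number; all 24 h points lie below all control points in every panel.

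Among cyclins and the subunits of their kinase, 2 of 7 measured members fell (6 with the block). CCNA2, cyclin A2, which partners CDK1 and CDK2 from S phase into G2, had intensities of 345, 498 and 257 at 24 h (replicates 1, 2 and 3, the order used throughout), against 969.5, 1079 and 912 at 5 h and 685, 1003 and 1075 in control. Every 24 h array lay below every other array, and CCNA2 fell by 1.31 ± 0.25 on the log2 scale (SE, n = 3 arrays a group; limma, adjusted p = 0.018). Of 9 refits that left out 1 array, 6 kept this call, and the adjusted p reached 0.081 without control replicate 2. CKS1B, a small subunit that docks the kinase on its substrates, stood at 859.6, 1011 and 777 at 24 h, 2195, 2272 and 2310 at 5 h and 1607, 1951 and 1845 in control. Its 3 groups did not overlap, with 5 h above control, and it fell by 1.02 ± 0.13 at 24 h (adjusted p = 0.0053). Its paralogue CKS2 gave 2135, 2813 and 1777 at 24 h, 3589, 4681 and 3988 at 5 h and 2772, 4208 and 4334 in control. The 24 h arrays of CKS2 overlapped control, and its log2 difference of -0.74 ± 0.22 did not pass (adjusted p = 0.070, and 0.0032 with the block).

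CDK1 itself, the mitotic kinase, had intensities of 709, 1298 and 593 at 24 h, 1416, 1803 and 1413 at 5 h and 1345, 1744 and 1758 in control. The 24 h arrays were below all others, but the log2 difference from control, -0.96 ± 0.27, missed the threshold (adjusted p = 0.063) and passed with the block (0.0024). The B-type cyclins, which carry the kinase through mitosis, had less regular values. CCNB1 gave 1391, 1675 and 716 at 24 h, 2974, 3082 and 2614 at 5 h and 1466, 2917 and 2239 in control, with a log2 difference of -0.83 ± 0.33 (adjusted p = 0.16; 0.022 with the block). CCNB2 gave 1188, 1475 and 750.2 at 24 h, 1770.1, 2186 and 1628 at 5 h and 1086, 2101 and 1828 in control. The 24 h and control arrays of both overlapped, and CCNB2, at -0.55 ± 0.30, was not called with or without the block (adjusted p = 0.33 and 0.062). CDC25C, the phosphatase that activates CDK1, had a log2 difference of -0.49 ± 0.18 (adjusted p = 0.15; 0.017 with the block).

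Of the mitotic kinases and the chromosomal passenger complex, which corrects wrong attachments and later directs cytokinesis, 1 of 5 measured members fell (5 with the block). CDCA8, which encodes the passenger subunit borealin, had 357, 648 and 315 at 24 h, 1186, 1349.9 and 1359 at 5 h and 726, 1218 and 1245 in control. Its groups at 24 h and in control did not overlap, and it fell by 1.27 ± 0.29 (adjusted p = 0.032). Leaving out 1 array at a time kept CDCA8 called in 4 of 9 refits (adjusted p up to 0.12, without control replicate 2). A dimmer second probe set of CDCA8 had a log2 difference of -1.11 and passed only with the block (adjusted p = 0.38, and 0.0016 with it). BIRC5, the passenger subunit survivin, stood at 784, 1120.2 and 542 at 24 h, 1979.5, 2621 and 1703 at 5 h and 1211, 2486 and 1915 in control. All 24 h arrays of BIRC5 were the lowest, with a log2 difference of -1.18 ± 0.32 just outside the threshold (adjusted p = 0.056; 0.0011 with the block).

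AURKB, the kinase of the passenger complex, is measured by a pair of probe sets that disagree in call. The brighter gave 415, 686 and 268 at 24 h, 789, 1103 and 528 at 5 h and 639, 1068 and 597 in control, with a log2 difference of -0.78 ± 0.38 (adjusted p = 0.27; 0.0012 with the block). Within each group the array numbered 3 was the lowest, so the groups overlapped although each 24 h array was below the control of its own number. The dimmer probe set fell by 1.37 (adjusted p = 0.018). AURKA, the kinase that matures centrosomes, had 295, 497 and 199.5 at 24 h, 1078, 1021 and 1038 at 5 h and 436, 826 and 674 in control, a log2 difference of -0.98 ± 0.32 at 24 h (adjusted p = 0.10; 0.010 with the block). PLK1, the Polo-like kinase of mitotic entry and cytokinesis, gave 708, 975 and 436 at 24 h, 1597, 2011 and 934 at 5 h and 884, 1916 and 1056 in control. The 24 h arrays overlapped control, and its difference of -0.84 ± 0.40 passed only with the block (adjusted p = 0.25, and 0.0047 with it).

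Among spindle checkpoint genes, 1 of 4 measured members fell (3 with the block). BUB1, a kinase that recruits checkpoint proteins to unattached kinetochores, had 366, 524 and 304 at 24 h, 864, 1056 and 841 at 5 h and 579.8, 901 and 893 in control. It fell by 0.97 ± 0.24 (adjusted p = 0.042) with groups that did not overlap. The call held in 2 of 9 refits that left out 1 array, with a highest adjusted p of 0.15 without control replicate 2. Its dimmer second probe set, at -0.77, was called only with the block (adjusted p = 0.55, and 0.0026 with it). MAD2L1, the protein that binds and holds the APC/C activator, stood at 441, 714 and 364 at 24 h, 1483, 1357 and 1258 at 5 h and 704, 1182 and 1147 in control, a log2 difference of -0.99 ± 0.27 (adjusted p = 0.057; 0.0049 with the block). The 24 h array of replicate 2 lay above control replicate 1. BUB1B, which encodes BubR1 of the same inhibitory complex, gave 928, 1268 and 727 at 24 h, 1407, 1645 and 1587 at 5 h and 884, 1545 and 1657 in control. Its difference of -0.46 ± 0.27 was not called in either fit (adjusted p = 0.36 and 0.096). BUB3, the adaptor that both BUB1 and BUB1B bind, had 1907, 2523 and 1816 at 24 h, 2808, 2984 and 3183 at 5 h and 2195, 2988 and 2786 in control, with a difference of -0.35 ± 0.16 (adjusted p = 0.23; 0.032 with the block).

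Both called genes of the APC/C group, 2 of 4 measured (4 with the block), act on the complex from opposite sides. FBXO5, the inhibitor EMI1 that keeps the APC/C off through S phase and G2, had 146, 236 and 202 at 24 h, 626, 485 and 761 at 5 h and 511, 724 and 857 in control. It fell by 1.75 ± 0.26 (adjusted p = 0.0080), and no 24 h array reached the level of any other array. UBE2C, the ubiquitin-conjugating enzyme that starts chains on APC/C substrates, stood at 1090.4, 1823 and 1187 at 24 h, 3339, 4039 and 4858 at 5 h and 1967, 3574 and 5185 in control. It fell by 1.31 ± 0.34 (adjusted p = 0.048). Of 9 refits that left out 1 array, 1 kept this call, and the adjusted p reached 0.16 without 24 h replicate 1. The array of 24 h replicate 2 came closest to control, just under control replicate 1. CDC20, the activator that the checkpoint restrains, gave 1367, 1567 and 690.4 at 24 h, 2298, 3379 and 1845 at 5 h and 1415, 3144 and 2202 in control, with overlapping 24 h and control groups and a difference of -0.90 ± 0.38 (adjusted p = 0.19; 0.012 with the block). ESPL1, the protease separase that cleaves cohesin at anaphase, had a difference of -0.91 ± 0.35 (adjusted p = 0.15; 0.0041 with the block).

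**Figure D2:**
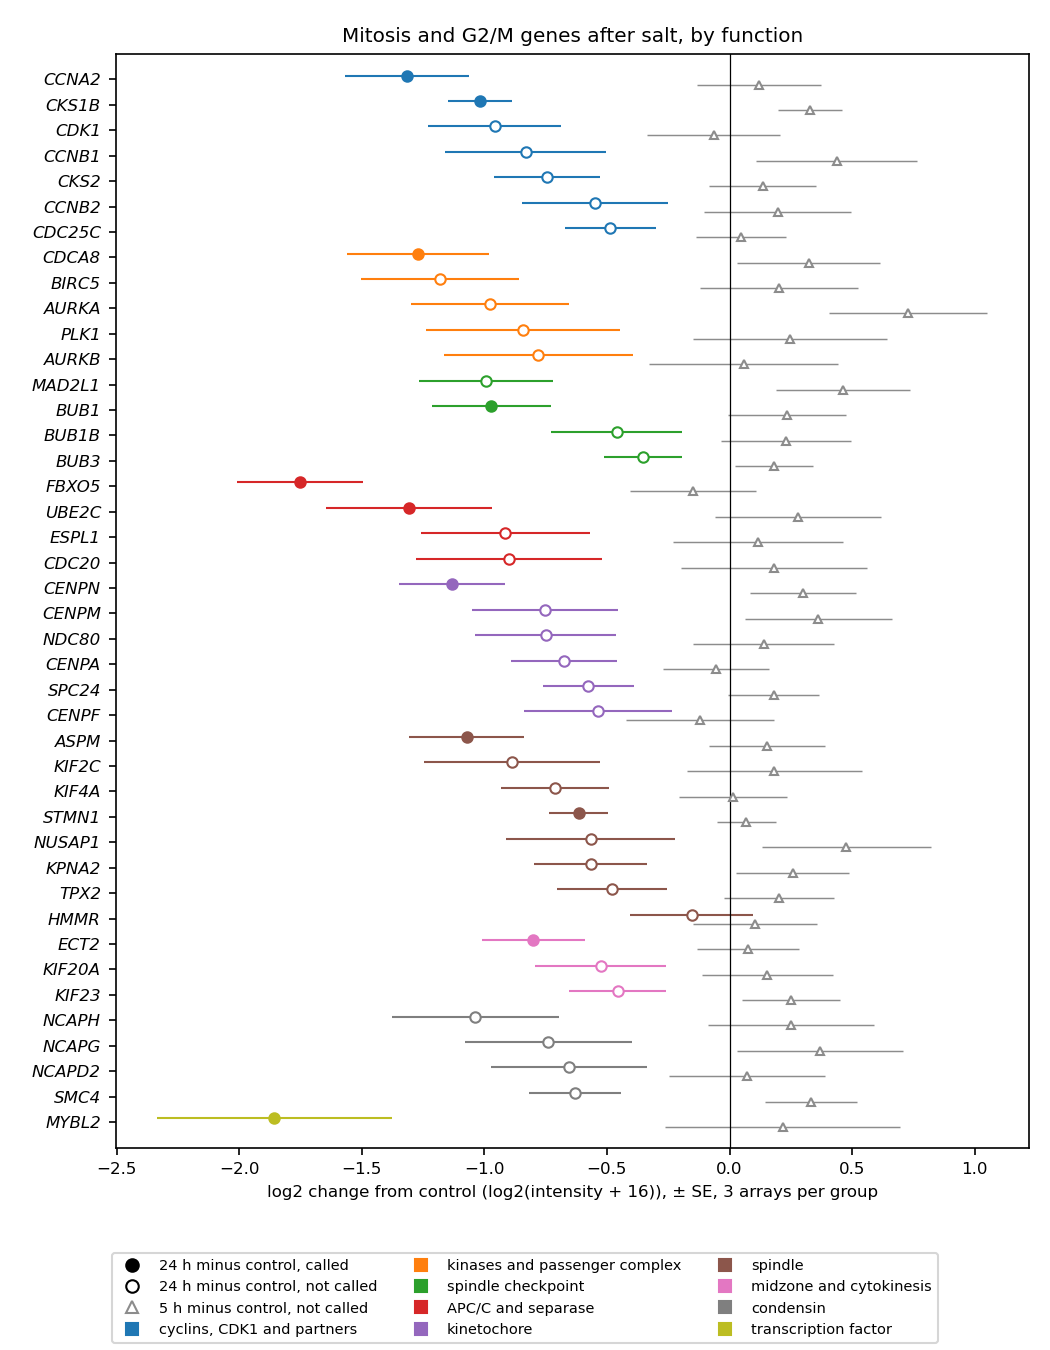
Log2 difference (horizontal axis) of each of the 42 measured members, ordered by role, for 24 h against control (circles) and 5 h against control (triangles). Filled points are called in the limma test over all probe sets and bars are standard errors. Every point lies below 0 at 24 h against control.

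At the kinetochore, 1 of 6 measured members fell (6 with the block). CENPN, which reads the centromeric nucleosome, had 486, 434 and 461 at 24 h, 1328, 1058 and 1446 at 5 h and 764, 1028 and 1378 in control. It fell by 1.13 ± 0.22 (adjusted p = 0.018) and its second probe set by 1.14 (adjusted p = 0.015), and the 24 h arrays lay below all others. Leaving out 1 array at a time kept CENPN called in 5 of 9 refits (adjusted p up to 0.071, without control replicate 2). CENPM, of the same constitutive centromere network, gave 613, 641 and 331 at 24 h, 1412, 1199.8 and 819.9 at 5 h and 918, 1033 and 681 in control. The 24 h values were all lower than control, with a difference of -0.75 ± 0.30 (adjusted p = 0.16; 0.0011 with the block). SPC24, a subunit of the NDC80 complex that grips microtubules, had 1492, 1466 and 1178 at 24 h, 2327, 2616 and 2069.8 at 5 h and 1595, 2552 and 2126 in control, and a difference of -0.58 ± 0.19 (adjusted p = 0.094; 0.0089 with the block). CENPF, a protein of the outer kinetochore that accumulates in G2, stood at 848, 1208 and 1075 at 24 h, 1089.8, 1175 and 2059.6 at 5 h and 1139, 1364 and 2185 in control. Its groups overlapped and its difference was -0.53 ± 0.30 (adjusted p = 0.35; 0.027 with the block). CENPA, the centromeric histone, differed by -0.68 ± 0.22 (adjusted p = 0.093; 0.0088 with the block) and NDC80 by -0.75 ± 0.29 (adjusted p = 0.15; 0.016 with the block). The CENPA probe set was dim, near the filter cut of 17.1, with 14, 15.3 and 27.4 at 24 h and 28.5, 53.6 and 37.6 in control.

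Of the spindle genes, 2 of 8 measured members fell (6 with the block). ASPM, which works at spindle poles, had 418, 554 and 335 at 24 h, 931, 988 and 1151 at 5 h and 676, 1004 and 1128 in control, and fell by 1.07 ± 0.24 (adjusted p = 0.029). The call held in 4 of 9 refits that left out 1 array, with a highest adjusted p of 0.11 without control replicate 2. STMN1, stathmin, which binds tubulin and destabilises microtubules in and out of mitosis, stood at 4145, 4434 and 3517 at 24 h, 6096, 6491 and 6797 at 5 h and 5318, 6770.1 and 6476 in control. It fell by 0.61 ± 0.12 (adjusted p = 0.020), a smaller fitted value than that of the other called members. Of 9 refits that left out 1 array, 5 kept this call, and the adjusted p reached 0.084 without control replicate 2. TPX2, the spindle factor that activates AURKA, gave 1473, 2153 and 1315 at 24 h, 2425, 2796 and 2559.9 at 5 h and 1664, 2614 and 2623 in control, with a difference of -0.48 ± 0.22 (adjusted p = 0.24; 0.031 with the block). KPNA2, an importin that carries nuclear cargo and holds TPX2 inactive, had 2698, 4114 and 2010.3 at 24 h, 4569, 5222 and 5218 at 5 h and 3582, 4653 and 4370.4 in control. Its difference of -0.57 ± 0.23 passed only with the block (adjusted p = 0.17, and 0.025 with it). The kinesin KIF2C had a difference of -0.89 ± 0.36 (adjusted p = 0.17; 0.0039 with the block) and the kinesin KIF4A one of -0.71 ± 0.22 (adjusted p = 0.083; 0.0041 with the block). NUSAP1 and HMMR, both microtubule-binding proteins, were at -0.57 ± 0.35 and -0.15 ± 0.25 and were not called with the block either (adjusted p = 0.15 and 0.59).

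At the spindle midzone and in cytokinesis, 1 of 3 measured members fell (2 with the block). ECT2, the exchange factor that activates RhoA at the division plane, had 561, 714 and 596 at 24 h, 1047, 1158 and 1259 at 5 h and 794, 1169 and 1403 in control. It fell by 0.80 ± 0.21, close to the threshold (adjusted p = 0.049), and a dimmer second probe set, at -0.74, was called only with the block (adjusted p = 0.12, and 0.0066 with it). Leaving out 1 array at a time kept ECT2 called in 1 of 9 refits (adjusted p up to 0.16, without 24 h replicate 1). KIF23, the motor of the centralspindlin complex that recruits ECT2, gave 1098, 1436 and 897 at 24 h, 1829.5, 1766 and 1941 at 5 h and 1215, 1753 and 1737 in control. Its difference was -0.46 ± 0.20 (adjusted p = 0.21; 0.0499 with the block), and that of the midzone motor KIF20A was -0.53 ± 0.27, not called in either fit (adjusted p = 0.062 with the block). A dimmer second probe set of KIF20A, at -0.59, was called only with the block (adjusted p = 0.64, and 0.048 with it).

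Of 4 condensin members measured, limma called 0 without the block (2 lower at an unadjusted p under 0.05) and 4 lower with it. SMC4, a core ATPase of condensin, the complex that compacts mitotic chromosomes, had 797, 949 and 709 at 24 h, 1595, 1561 and 1635 at 5 h and 949.6, 1461 and 1459 in control. Its 24 h arrays were the lowest, with a difference of -0.63 ± 0.19 (adjusted p = 0.074; 0.0087 with the block). NCAPH, the subunit that closes the condensin I ring, stood at 216, 370 and 159 at 24 h, 626, 721 and 467 at 5 h and 354, 705 and 493 in control, with a difference of -1.04 ± 0.34 (adjusted p = 0.099; 0.0021 with the block). NCAPD2, another condensin I subunit, gave 503, 779.9 and 352 at 24 h, 826, 1049.8 and 750.4 at 5 h and 595, 1157 and 812 in control. The groups of NCAPH and NCAPD2 overlapped, and the difference of NCAPD2 was -0.65 ± 0.32 (adjusted p = 0.26; 0.013 with the block). NCAPG had a difference of -0.74 ± 0.34 (adjusted p = 0.23; 0.0064 with the block).

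MYBL2, the transcription factor B-Myb that joins the MuvB complex to switch on late cell cycle genes, had the most negative fitted difference of the members. It stood at 120.1, 109.5 and 63.3 at 24 h, 495, 792 and 228 at 5 h and 287, 676 and 291 in control. Every 24 h array was lower than every other array, and MYBL2 fell by 1.86 ± 0.48 (adjusted p = 0.047). The call held in 2 of 9 refits that left out 1 array, with a highest adjusted p of 0.16 without control replicate 2.

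After 5 h in salt, no member was called lower or higher than control, also with the block. At an unadjusted p under 0.05, 0 were lower and 1, CKS1B, was higher (5 higher with the block). Of all 18012 probe sets, 810 were lower and 489 higher at that unadjusted p (2221 and 1376 with the block). The background of adjusted calls was 0.250% of all probe sets called lower and 0.233% called higher, and 3.41% and 2.45% with the block. The log2 difference was above 0 in 38 of the 42 and below 0 in CDK1, FBXO5, CENPA and CENPF, against 56.1% of all probe sets below 0. Its median was 0.19, with a range of -0.15 (FBXO5) to 0.73 (AURKA), beside -0.030 over all probe sets. The 5 h arrays lay wholly above control for 5 members, CKS1B, AURKA, MAD2L1, KIF23 and SMC4, and wholly below for 0, against 4.04% and 6.60% of all probe sets. AURKA differed by 0.73 ± 0.32 (adjusted p = 0.70), MAD2L1 by 0.46 ± 0.27 (adjusted p = 0.92) and CKS1B by 0.33 ± 0.13 (adjusted p = 0.58). FBXO5 differed by -0.15 ± 0.26 (adjusted p = 0.9998). The median rests on control replicate 1: without that array it was -0.02, and 23 of the 42 members were then below 0.

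Between 24 h and 5 h in salt, where control arrays enter only through the shared estimate of spread, 22 of the 42 members fell and 0 rose, and 40 fell with the block. The background was 6.15% of all probe sets called lower and 8.01% called higher, and with the block 19.6% and 24.2%. All 42 differences were negative, against 44.3% of all probe sets, with a median of -0.996 and a range of -2.07 (MYBL2) to -0.26 (HMMR), beside 0.057 over all probe sets. The 24 h arrays lay wholly below the 5 h arrays for 37 members and wholly above for 0, against 14.3% and 18.1% of all probe sets. This comparison and that of 24 h with control share the 24 h arrays.

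Among the members called at 24 h against 5 h but not against control, AURKA fell by 1.71 ± 0.32 (adjusted p = 0.012) and MAD2L1 by 1.46 ± 0.27 (adjusted p = 0.012). The second probe set of AURKA, at -1.75, was called only with the block (adjusted p = 0.068, and 0.00049 with it). BIRC5 fell by 1.39 ± 0.32 (adjusted p = 0.024), NCAPH by 1.29 ± 0.34 (adjusted p = 0.037) and CCNB1 by 1.27 ± 0.33 (adjusted p = 0.035). These genes serve different steps, from attachment and chromosome compaction to the entry kinase. CENPM fell by 1.11 ± 0.30 (adjusted p = 0.040), SMC4 by 0.96 ± 0.19 (adjusted p = 0.013) and CKS2 by 0.88 ± 0.22 (adjusted p = 0.030). KPNA2 fell by 0.82 ± 0.23 (adjusted p = 0.046), SPC24 by 0.76 ± 0.19 (adjusted p = 0.029) and KIF23 by 0.71 ± 0.20 (adjusted p = 0.047), the smallest changes of this set. The dimmer probe set of CENPM (adjusted p = 0.56, and 0.00026 with the block), both of NCAPH (0.26 and 0.34, and 0.00051 and 0.00055 with the block) and the brighter of the other SMC4 sets (0.18, and 0.00031 with the block) passed only with the block, while the dimmest SMC4 set fell by 0.50 (adjusted p = 0.040). That dimmest set lay near the filter cut of 17.1, with intensities of 12.4, 15.4 and 12.8 at 24 h and 20.2, 26.6 and 31 at 5 h.

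Of the members called in both, MYBL2 fell by 2.07 ± 0.48, FBXO5 by 1.60 ± 0.26, CDCA8 by 1.59 ± 0.29, UBE2C by 1.59 ± 0.34, CCNA2 by 1.44 ± 0.25 and CENPN by 1.43 ± 0.22 against 5 h. CKS1B fell by 1.35 ± 0.13, ASPM by 1.23 ± 0.24, BUB1 by 1.21 ± 0.24, ECT2 by 0.87 ± 0.21 and STMN1 by 0.68 ± 0.12. The adjusted p of these 11 was between 0.0018 (CKS1B) and 0.026 (ECT2). The second probe sets of CDCA8, BUB1 and ECT2 passed here only with the block (adjusted p = 0.19, 0.32 and 0.057, and 0.00029, 0.00040 and 0.0023 with it).

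**Figure D3:**
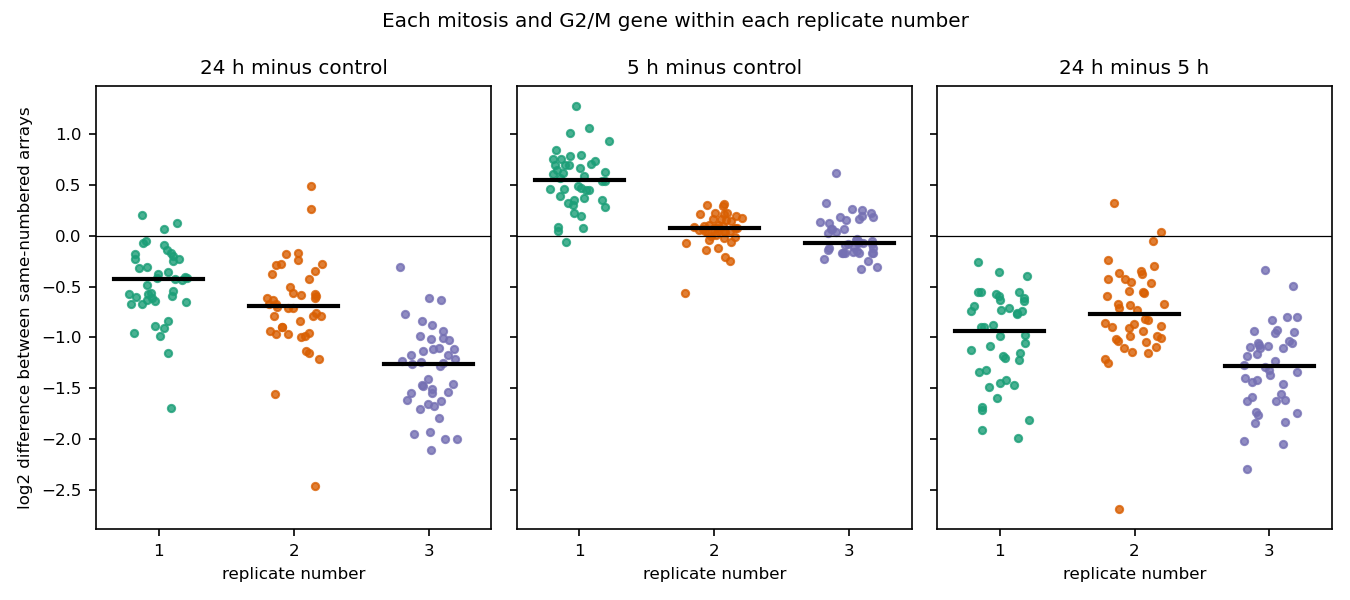
Log2 difference (vertical axis) of each of the 42 members within the pairs of arrays that share a replicate number, at 24 h against control, at 5 h against control and at 24 h against 5 h. Each point is a member and each bar is the median of a pair; the medians at 24 h against control lie at -0.43, -0.69 and -1.26 for pairs 1, 2 and 3.

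Named members that were not called against 5 h had differences of -0.89 ± 0.27 for CDK1 (adjusted p = 0.060), -0.74 ± 0.30 for CCNB2 (adjusted p = 0.14), -1.08 ± 0.38 for CDC20 (adjusted p = 0.096) and -1.09 ± 0.40 for PLK1 (adjusted p = 0.11). BUB1B was at -0.69 ± 0.27 (adjusted p = 0.12), BUB3 at -0.53 ± 0.16 (adjusted p = 0.058), TPX2 at -0.68 ± 0.22 (adjusted p = 0.078) and NCAPD2 at -0.72 ± 0.32 (adjusted p = 0.17). AURKB was at -0.84 ± 0.38 (adjusted p = 0.19) by its brighter probe set, while the dimmer fell by 1.56 (adjusted p = 0.0081). With the block each of these 9 was called, with an adjusted p of 0.00060 (AURKB) to 0.017 (BUB1B). CENPF, at -0.41 ± 0.30, was called in neither fit (adjusted p = 0.43, and 0.062 with the block), and HMMR, at -0.26 ± 0.25, was the other.

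Leaving out 1 array at a time moved the count of members called lower against 5 h between 6 and 26. It was 6 without 24 h replicate 1, with 2.13% of all probe sets called lower, 12 without 24 h replicate 3 (4.15%), 7 without 5 h replicate 1 (2.05%) and 10 without 5 h replicate 2 (3.15%), against 6.15% with every array. CCNA2, CKS1B, CDCA8, FBXO5, CENPN and STMN1 kept their calls in all 9 refits. The other 16 lost theirs in at least 1, with a highest adjusted p between 0.052 (ASPM, without 24 h replicate 1) and 0.14 (CENPM, without 5 h replicate 1). The median stayed between -1.24 and -0.78.

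Pairs of arrays with the same replicate number were compared member by member. In the pair numbered 3 all 42 members were lower at 24 h than in control, in the pair numbered 2 it was 40, and in the pair numbered 1 it was 39; 37 members were lower in all 3 pairs, against 29.5% of all probe sets. The median of the members was -1.26, -0.69 and -0.43 in pairs 3, 2 and 1. Control replicate 1 was the lowest control array for 40 of the 42 members, and 24 h replicate 3 the lowest 24 h array for 36. At 5 h the pair medians were 0.55, 0.07 and -0.07 for pairs 1, 2 and 3, and 13 members were higher in all 3 pairs, against 17.5% of all probe sets. Against 5 h the 24 h arrays had medians of -0.94, -0.77 and -1.28, and 40 members were lower in all 3 pairs, against 28.7% of all probe sets.

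Other genes of mitosis, taken from lists of kinetochore, spindle, cohesin, condensin, APC/C and mitotic entry or exit genes outside the 60, included both directions. Of 117 listed, 77 were measured and 76 tested, of which 15 fell and 2 rose at 24 h against control (47 and 9 with the block), with a median of -0.53. Of all probe sets, 4.32% were called lower and 4.28% higher there, and 17.5% and 18.3% with the block. At 5 h limma called 0 of the 76 in either direction, with 2 lower and 3 higher at an unadjusted p under 0.05, and 1 lower was called with the block. Of all 18012 probe sets, 810 were lower and 489 higher at that unadjusted p, and 3.41% were called lower with the block. Of 20 other kinetochore genes 8 fell (18 with the block), with a median of -0.84, among them CENPP, which fell by 1.29, SPDL1 by 1.35, CENPI by 0.90 and KNTC1 by 1.11. Of 16 genes of mitotic entry and exit 4 fell (8 lower and 4 higher with the block): NEK6 fell by 1.24, PIMREG by 1.24, CDCA2 by 1.29 and BORA by 0.57. Of 19 other spindle genes tested, 1 fell, the augmin subunit HAUS8 by 1.24 (12 lower and 2 higher with the block).

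Of the larger complexes, the APC/C list held genes called in both directions, the cohesin list did so only with the block, and the other condensin list held no called rise. The share of all probe sets called at 24 h against control was 4.32% lower and 4.28% higher, and 17.5% and 18.3% with the block. Whether these small lists differ from that share was not tested. Of 12 APC/C subunits, CDC23 fell by 1.08 and ANAPC16 rose by 0.54 (4 lower and 2 higher with the block), with a median of -0.28. Cohesin, which holds sister chromatids together, had 6 of 16 listed genes measured. Among these 6, 0 fell (1 was lower at an unadjusted p under 0.05) and NIPBL, the cohesin loader, rose by 0.65 (2 lower and 1 higher with the block). In a list of 4 other condensin genes that also holds the cohesin subunit SMC1A, NCAPG2 fell by 1.22 (3 lower with the block). Of 10 genes of the DREAM complex and quiescence, through which late cell cycle genes are held off, TFDP2 rose by 1.03 and TFDP1, like it a partner of E2F factors, fell by 0.69 (2 higher and 2 lower with the block), with a median of 0.02. Inhibitors of cyclin-dependent kinases were measured for 4 of 8 listed, and CDKN1B, CDKN2A, CDKN2D and CDKN3 had no probe set of their own. Among the 4 measured, 0 were called in either direction at 24 h, and at an unadjusted p under 0.05 limma gave 0 lower and 0 higher (1 lower with the block).

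DNA replication and G1/S genes act before mitosis. Of 54 listed 44 were measured, and 21 fell and 0 rose at 24 h against control (36 and 0 with the block), with a median of -1.04 beside -0.77 for the mitosis members. The share of all probe sets was 4.32% called lower and 4.28% higher, and 17.5% and 18.3% with the block. RRM2, the small subunit of ribonucleotide reductase, fell by 2.45, CDCA7 by 2.73, POLE2, a subunit of DNA polymerase epsilon, by 1.97 and CCNE2, cyclin E2 of the G1/S transition, by 1.67. At 5 h limma called 0 of the 44 in either direction, with 2 lower and 0 higher at an unadjusted p under 0.05, and 3 lower were called with the block. Among all 18012 probe sets, 810 were lower and 489 higher at that unadjusted p, and 3.41% were called lower with the block. Whether the medians of the lists differ was not tested.

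**Figure D4:**
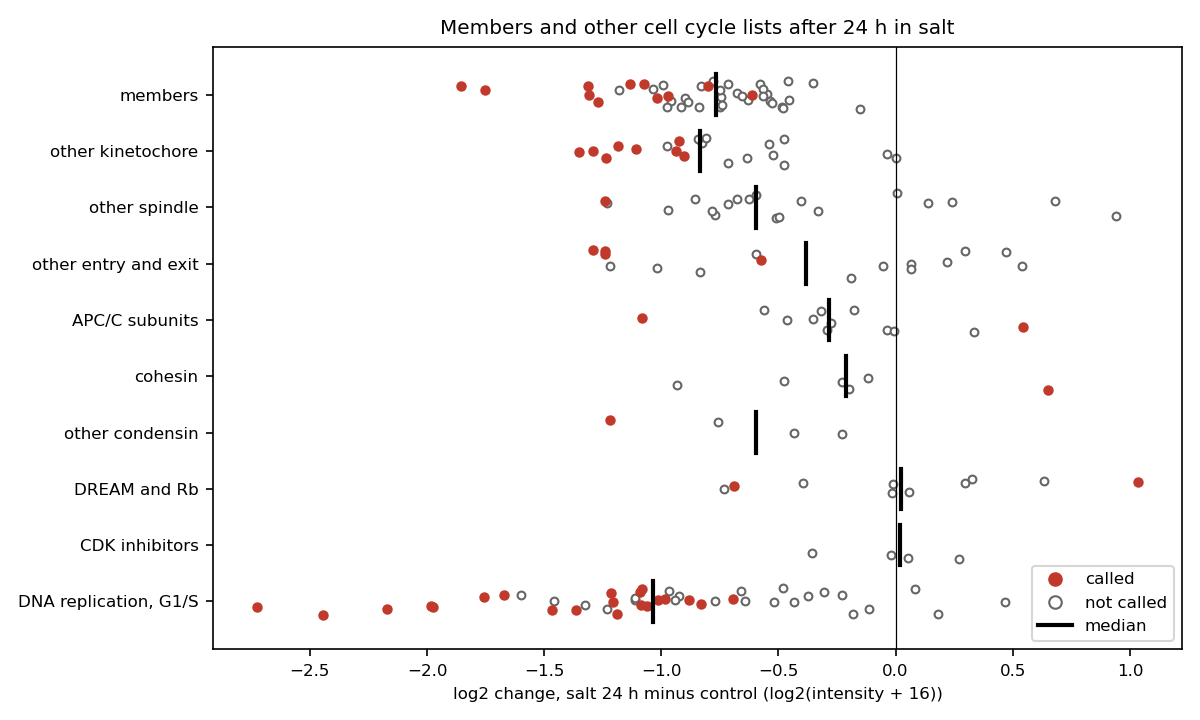
Log2 difference at 24 h against control (horizontal axis) for the mitosis and G2/M members and for the other lists, each point a gene and each bar the list's median. Filled points are called over all probe sets; the members have a median of -0.77 and the DNA replication and G1/S genes one of -1.04.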

How the data were processed

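Expression was measured on 9 one-colour Affymetrix bovine arrays of 3 groups, with biotin-labelled RNA primed from oligo(dT), per the labels' protocols. Per the submitters' processing notes, the authors ran PLIER in Affymetrix Expression Console, and from their range the deposited values are intensities that are not on a log scale. Its version, its settings and whether arrays were normalized were points not given in the sources used here. Gene symbols came from the platform annotation (13292 probe sets with 1 symbol, 86 with several and 10638 not listed, of 24016 outside the manufacturer's controls). All 42 measured members were found in a current table of bovine genes, with 0 symbols changed.

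Values were taken as log2(intensity + 16), which understates changes of dim probe sets, and 18012 probe sets whose mean reached the 25th percentile (an intensity of 17.1) were kept. One limma model (version 3.58.1, R 4.3.3) held the mean of each of the 3 groups over the 9 arrays, with lmFit and trended eBayes. Calls need an adjusted p under 0.05 by Benjamini and Hochberg's method over the 18012. The fit was run on simulated data with independent noise in each array and no effect of replicate number. That run checked only the mean estimates of known differences, so it cannot say whether calls hold where arrays share a replicate effect. Every adjusted p comes from this limma test, and n is 3 arrays a group throughout. The number of arrays limits the precision.

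The labels' replicate numbers were used to pair the arrays, although the labels state no pairing. Deviations from the group means of arrays with the same number correlated at 0.56 to 0.90 over probe sets. The range was 0.88 to 0.90 for arrays numbered 3 and 0.56 to 0.72 for the other numbers. Correlations between arrays of different numbers are not reported here. Deviations cancel out within a group, so covariances between arrays of different numbers must be negative when summed. Arrays with the same number thus deviated alike, but what they share is not stated in the labels and was not tested. The block and the comparisons within pairs take the pairing as given. The fit with the number as a block is given where it changes the call of a value printed for a member. The members and lists were chosen with earlier results of these data known. Named in full were members called in any comparison and a set of members listed by name; from each other list, up to 4 called genes with the smallest adjusted p were named. Genome positions and promoter sequences were not used here. Alternatives covered the pseudocount, filter, scaling, block, arrays fitted, trend, choice of probe set and leaving out arrays.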

Additional observations from a re-analysis of the deposited data

Results flagged for a closer look

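The difference between 24 h and 5 h passed the limma test for 22 members, so that their changes against the shared control differ between the times. The log2 differences, 24 h minus 5 h, were -2.07 for MYBL2, -1.71 for AURKA, -1.60 for FBXO5, -1.59 for CDCA8, -1.59 for UBE2C, -1.46 for MAD2L1, -1.44 for CCNA2, -1.43 for CENPN, -1.39 for BIRC5, -1.35 for CKS1B and -1.29 for NCAPH. They were -1.27 for CCNB1, -1.23 for ASPM, -1.21 for BUB1, -1.11 for CENPM, -0.96 for SMC4, -0.88 for CKS2, -0.87 for ECT2, -0.82 for KPNA2, -0.76 for SPC24, -0.71 for KIF23 and -0.68 for STMN1. None of the 22 was called at 5 h against control by limma. At an unadjusted p under 0.05, 1 of them, CKS1B, was higher there, as were 489 of all 18012 probe sets.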

How the results depend on the processing

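Among the alternatives without an array left out, 11 members called lower at 24 h against control became 7 with no filter on low values, 4 with only the 6 arrays compared and 37 with the replicate block. The share of all probe sets called lower, 4.32% in the main fit, became 2.76%, 2.14% and 17.5% in these settings. With the replicate block, 22 called against 5 h became 40, and the share of all probe sets went from 6.15% to 19.6%. The block also ended no call. Leaving out 1 array gave 2 to 15 against control and 6 to 26 against 5 h. Leaving out replicate 1, 2 or 3 of every group, added after seeing the data, gave 0, 0 and 5 against control. There 0, 4 and 745 of 18012 probe sets were called lower. Against 5 h it gave 0 and 0 for replicates 1 and 2, where 0 and 1 of all probe sets were called lower. Without replicate 3, 1471 of all probe sets were called lower against 5 h. Each of these refits kept 6 arrays, with the same number of residual degrees of freedom, fewer than in the main fit. The 5 h median was -0.0189 without control replicate 1 (highest 0.337), and the 5 h difference of FBXO5 was -0.352 without control replicate 1, 0.013 without control replicate 3, 0.0163 without 5 h replicate 2 and 0.0585 without replicate 2 of every group. The cause of these shifts was not tested. Medians at 24 h stayed below 0 in all alternatives run. With arrays centred on their median, all probe sets split into 857 lower and 568 higher at 24 h against control (779 and 771 without), 27 and 37 at 5 h against control (45 and 42 without), and 1515 and 925 at 24 h against 5 h (1108 and 1443 without), and all 42 members still lay below 0 at 24 h. The planned search of promoters for motifs was not run, since no promoter sequence was used here. Dim probe sets, near the floor, have understated changes.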
